A study of Mus musculus with 2 samples.

Results

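The immunoglobulin heavy chain locus (Igh) and kappa light chain locus (Igk) were described in chromatin labelled as thymus. The method was DNase-seq, in which the enzyme DNase I cuts DNA where chromatin is open. The members were every peak, footprint and false discovery rate (FDR) interval inside chr12:113220000-116020000 (Igh, 2.80 Mb) and chr6:67500000-70760000 (Igk, 3.26 Mb) on mm10, the mouse assembly GRCm38. The intervals held 415 of the 55413 genes annotated in GENCODE vM21 as immunoglobulin segments. They held 49 of 85367 peaks in the library labelled replicate 1 and 121 of 60644 peaks in the library labelled replicate 2, called library 1 and library 2 below. Both libraries are labelled as thymus of B6CASTF1/J males, F1 hybrids of a B6 and a CAST parent, at an age of 36 days. No treatment is named in the labels. They form 1 group. The labels name separate biological replicates and separate tissue samples but give both the same donor entry, so they may or may not be different mice. A single group of 2 libraries allows no test across libraries, and each library is given by itself.

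An immunoglobulin gene is assembled by the recombinase RAG1 and RAG2, which joins V, D and J segments (heavy chain) or V and J segments (kappa chain) upstream of the constant genes. Each segment is flanked by a recombination signal sequence, a heptamer and a nonamer separated by a spacer. CTCF, a DNA-binding protein that halts the loop-extruding cohesin complex, binds many sites among the heavy chain V segments and at the borders of both loci. The intron between the J segments and the first constant gene carries an enhancer in both loci, and further enhancers lie 3' of the constant genes. B cells assemble and transcribe these genes. In the thymus, most cells are developing T cells, which assemble T cell receptor genes instead, although D to J joining at Igh is known to occur in T cell precursors, and a small B cell population resides there.

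Many of the peaks within the V part of Igh lay at 1 of 3 kinds of position, and sequences of each kind are shown because the motifs in them differ. The rest lay elsewhere, 6 of 18 in library 1 and 37 of 97 in library 2. The kinds were set by the peak centre, which in the first kind lay just past the V segment. The lines give the first 80 bases after the 3' end of the segment, 5' to 3' along the segment's own strand. Capitals mark the heptamer, the nonamer and, where present, a match to a looser CTCF consensus, which reads CC, 3 free bases, AG, 2 free bases, GGC.
Ighv5-2, chr12:113578424-113578503, minus strand: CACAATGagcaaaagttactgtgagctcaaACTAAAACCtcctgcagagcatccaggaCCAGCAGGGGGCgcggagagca
Ighv2-6, chr12:113716590-113716669, minus strand: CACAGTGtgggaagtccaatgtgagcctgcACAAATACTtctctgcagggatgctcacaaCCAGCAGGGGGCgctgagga
Ighv5-17, chr12:113859069-113859148, minus strand: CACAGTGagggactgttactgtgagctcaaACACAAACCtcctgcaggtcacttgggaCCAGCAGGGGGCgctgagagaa
Ighv4-2, chr12:114013064-114013143, minus strand: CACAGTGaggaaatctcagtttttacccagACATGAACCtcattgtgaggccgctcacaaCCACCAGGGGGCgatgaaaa
Ighv11-1, chr12:113981799-113981878, minus strand: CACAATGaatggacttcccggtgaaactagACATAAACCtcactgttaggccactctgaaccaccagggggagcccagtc
In Ighv5-2, Ighv2-6, Ighv5-17 and Ighv4-2 the CTCF match followed the nonamer on the same strand as the segment, while Ighv11-1 had no match to these letters.

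In the second kind the centre lay, in library 2, from 149 bp before to 20 bp past the end of the V segment. These peaks were mostly in the families Ighv1, Ighv9 and Ighv14. Covering the end did not separate the kinds, since each segment printed above also had its end in a peak of library 2. The lines give the first 45 bases after the segment. Capitals mark the heptamer, the nonamer and, between them, ACCACA, which is the RUNX consensus TGTGGT read on the opposite strand.
Ighv1-12, chr12:114615805-114615849, minus strand: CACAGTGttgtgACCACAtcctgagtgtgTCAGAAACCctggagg
Ighv1-85, chr12:115999983-116000027, minus strand: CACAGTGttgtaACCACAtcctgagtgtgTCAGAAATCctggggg
Ighv9-4, chr12:114299916-114299960, minus strand: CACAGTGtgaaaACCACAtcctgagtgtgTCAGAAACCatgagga
Ighv14-2, chr12:113994424-113994468, minus strand: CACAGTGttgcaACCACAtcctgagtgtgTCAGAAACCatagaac
In each of these 4, the RUNX match followed the first 12 bases after the segment. RUNX proteins are transcription factors of blood cells, among them Runx1 in T cell precursors.

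The third kind lay upstream of Ighv1 segments, about 1.2 kb from their 3' end. The lines give 53 bases around the match to the CTCF consensus (CCA, 2 free bases, AG, 2 free bases, GGCA), in capitals, on the strand of the V segment.
Ighv1-64, chr12:115508762-115508814, minus strand: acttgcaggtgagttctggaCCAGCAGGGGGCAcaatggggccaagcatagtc
Ighv1-65, chr12:115533293-115533345, minus strand: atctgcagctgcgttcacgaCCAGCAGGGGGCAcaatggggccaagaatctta
Ighv1-69, chr12:115624386-115624438, minus strand: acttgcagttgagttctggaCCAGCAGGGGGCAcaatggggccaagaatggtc
Ighv1-74, chr12:115803865-115803917, minus strand: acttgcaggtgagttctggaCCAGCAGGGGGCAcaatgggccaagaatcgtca
The same consensus stood in the opposite direction at the other end of the locus, 3' of the last constant gene Igha, in peaks of both libraries.
3' of Igha, chr12:113220033-113220085, plus strand: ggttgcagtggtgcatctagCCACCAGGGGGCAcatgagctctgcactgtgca
3' of Igha, chr12:113221388-113221440, plus strand: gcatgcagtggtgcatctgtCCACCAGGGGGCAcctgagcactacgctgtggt

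The J to C intron of Igh holds the next sequence, a peak of library 2 alone, read along the gene. Capitals mark matches to the octamer ATTTGCAT (bound by the POU factors Oct-1 and Oct-2), the E-boxes CAGGTG and CAGCTG (bound by E proteins such as Tcf3), the RUNX consensus and AAGATGGC (bound by Yy1), each searched on both strands.
Ighj4 to Ighm, chr12:113427401-113427640, minus strand: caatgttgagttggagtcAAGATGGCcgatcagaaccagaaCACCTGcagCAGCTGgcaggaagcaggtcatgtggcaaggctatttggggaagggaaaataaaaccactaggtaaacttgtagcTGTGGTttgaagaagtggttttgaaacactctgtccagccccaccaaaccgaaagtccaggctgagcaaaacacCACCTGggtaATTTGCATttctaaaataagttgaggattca
The corresponding intron of Igk, printed around its NF-kB match, the first run of capitals, with CAGGTG and TGTGGT also in capitals, lay in no peak.
Igkj5 to Igkc, chr6:70725725-70725904, plus strand: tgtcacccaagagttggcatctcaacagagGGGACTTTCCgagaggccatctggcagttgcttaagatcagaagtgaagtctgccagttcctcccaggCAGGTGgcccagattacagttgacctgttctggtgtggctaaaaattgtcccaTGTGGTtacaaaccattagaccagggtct
V segments belong to families of similar copies, so a peak there is less certain than elsewhere. Of all 31-base stretches, 60.3% in Igh and 57.3% in Igk occurred once in the genome. The sources used here do not say how reads with several equal placements, or reads from the CAST parent, were handled.

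The tissue label was checked by promoter peaks within 1 kb of a transcript start. All 12 thymocyte genes, such as Cd3e and Cd8a, were open in library 2, but only 2 of 12 (Lck and Tcf7) in library 1, against 63.1% and 60.1% of all protein-coding genes in libraries 1 and 2. B cell genes were open in 7 of 16 (library 1) and 9 of 16 (library 2), and plasma cell genes in 3 and 4 of 6. Promoter peaks of the B cell genes ranged from 0.368 to 4.53 in library 1 and from 0.824 to 6.97 in library 2. Pax5, Ebf1, Vpreb1, Cd22 and Cr2 were among the 7 B cell genes open in both libraries, while Cd79a, Cd79b and Ms4a1 were among the 7 open in neither. The thymocyte genes did not bear out the thymus label in library 1, and whether that label is right was not settled. Differences between the libraries below may therefore not be differences between thymus samples. In bulk tissue, fewer cells of a type and less opening per cell cannot be told apart. The part of these marker differences in the results below was not tested.

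Igh had more peaks in library 2 than in library 1. Library 1 had 25 peaks there, which is 0.893 per 100 kb, and library 2 had 112, which is 4.00 per 100 kb. The genome as a whole had 3.13 and 2.23 peaks per 100 kb, so Igh stood below the genome's density in library 1 and above it in library 2. The deposited FDR tables, which list intervals with an FDR under 0.05, covered 0.404% of Igh in library 1 and 1.65% in library 2, against 1.87% and 1.26% of the genome. Footprints, short protected stretches within open chromatin, numbered 71 and 410. Per 100 kb that is 2.54 and 14.6, against 11.6 and 9.94 in the genome.

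In Igk library 1 had more peaks than library 2, as in the genome as a whole. Library 1 had 24 peaks (0.736 per 100 kb) and library 2 had 9 (0.276 per 100 kb), below the genome's density in both. FDR intervals covered 0.388% and 0.137% of the locus, against 1.87% and 1.26% of the genome. Footprints numbered 64 and 38, which is 1.96 and 1.17 per 100 kb against 11.6 and 9.94.

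**Figure D1:**
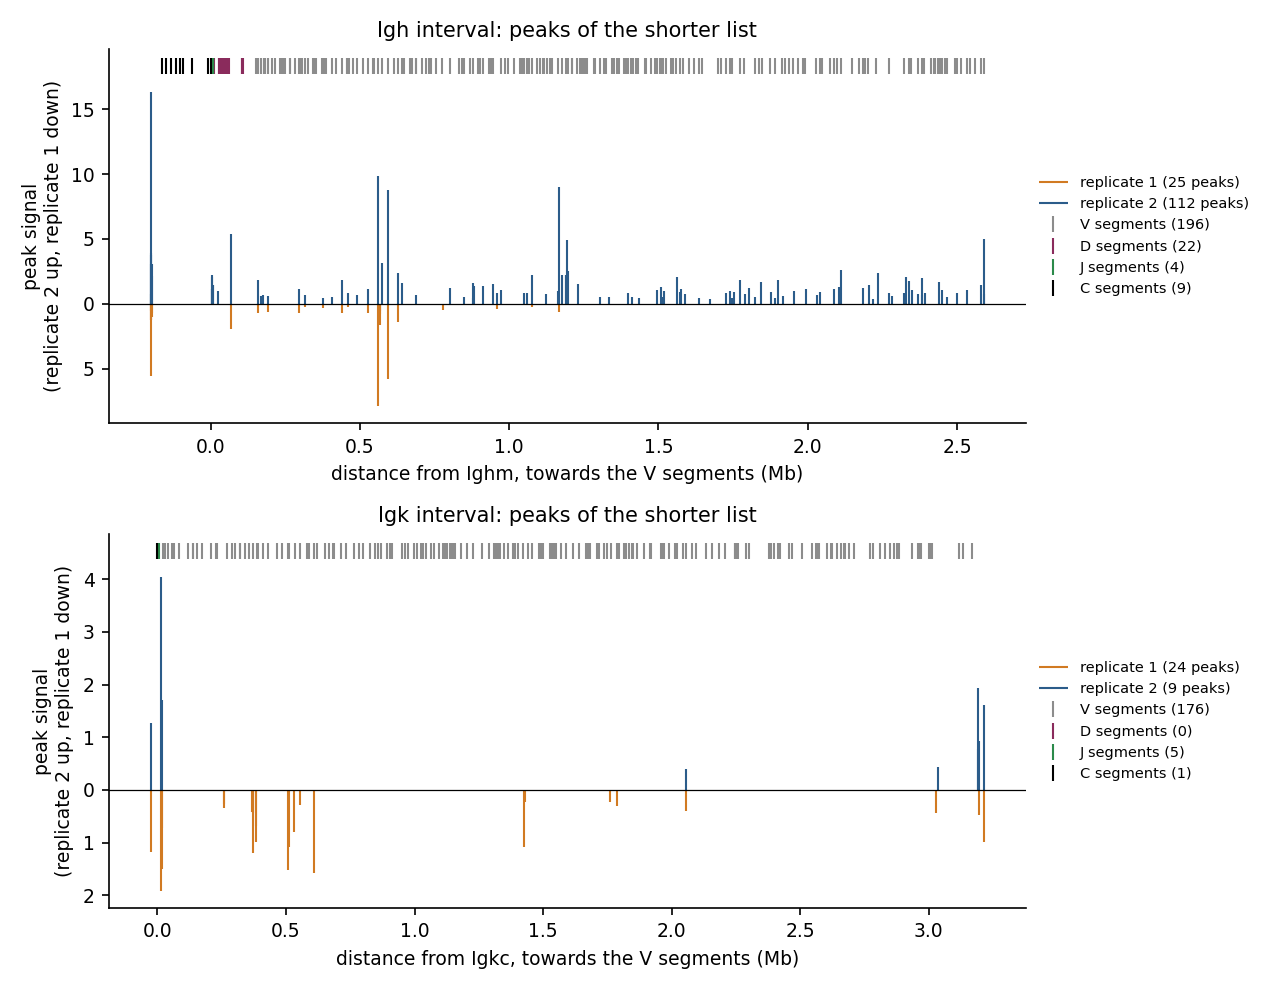
Peaks of the shorter list along Igh (top) and Igk (bottom), by distance in Mb from Ighm or Igkc towards the V segments. The height is the peak signal, upward for replicate 2 (library 2) and downward for replicate 1 (library 1), and ticks above mark the gene segments. In Igh the 112 peaks of library 2 run through the whole V part while most of the 25 of library 1 lie in its nearer part. In Igk the V peaks of library 1 cluster in the part nearest the J segments.

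Most Igh peaks of library 1 were also found in library 2, but not the reverse. Of the 25 peaks of library 1, 20 (80%) overlapped a peak of library 2, against 43.1% of all its peaks. Of the 112 peaks of library 2, 20 (17.9%) overlapped one of library 1, against 60.6% of all its peaks. In Igk, 6 of 24 (25%) and 6 of 9 (66.7%) were shared.

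Shared Igh peaks were mostly stronger in library 2. The ratio of the signals, library 2 over library 1, had a median of 2.63 over the 20 Igh peaks, and 19 of them were higher in library 2. All 36754 shared peaks had a median ratio of 1.33, with 66.4% higher in library 2. The 6 shared Igk peaks had a median ratio of 1.39, close to that of all shared peaks. The scaling of the deposited signal is not given, so these ratios are set only beside the ratio of all peaks.

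**Figure D2:**
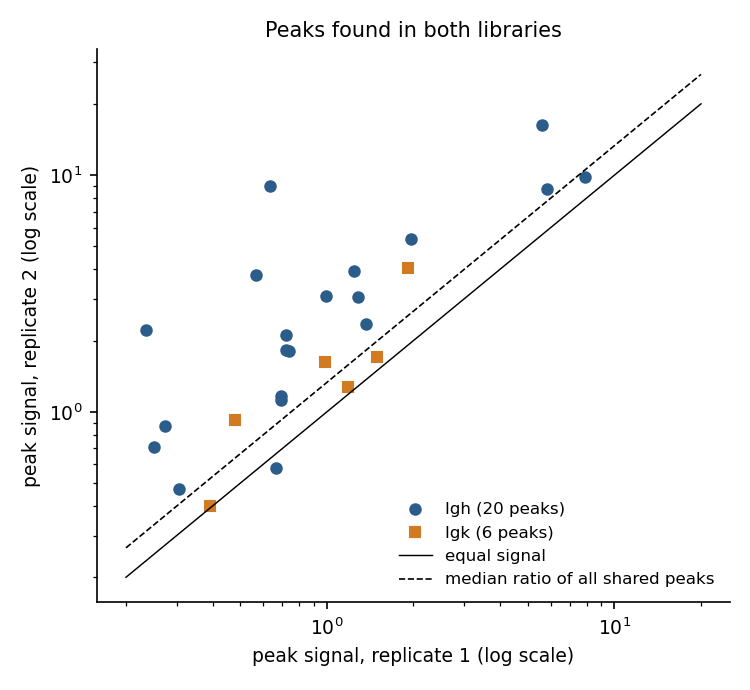
Signal of the 20 Igh peaks (circles) and 6 Igk peaks (squares) found in both libraries, replicate 1 on the horizontal and replicate 2 on the vertical axis, both logarithmic. The solid line marks equal signal and the dashed line the median ratio of all shared peaks, 1.33. Of the Igh peaks, 18 lie above the dashed line.

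V segments encode most of the variable domain. Those of Igh were open more often than genome windows in library 2, and the shares in library 1 were near the genome's in both loci. A segment was called open when a peak lay within 500 bp of it. In Igh, 12 of 196 V segments (6.12%) were open in library 1, 50 (25.5%) in library 2 and 12 in both. Windows of the same median length, 1.46 kb, tiled over the genome held a peak in 4.02% (library 1), 2.99% (library 2) and 1.95% (both libraries). The share in library 1 was near that of the genome, with a 95% Wilson interval of 3.54% to 10.4%, and the share in library 2 was above it, with an interval of 19.9% to 32.0%. Wilson intervals here cover the counting of segments only.

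In Igk, 5 of 176 V segments (2.84%, Wilson interval 1.22% to 6.48%) were open in library 1 and none in library 2, where the upper limit of the interval was 2.14%. The genome windows stood at 4.02% and 2.99%, so the share in library 1 was near the genome's and that in library 2 below it. With the longer peak list 1 segment was open in library 2. The T cell receptor alpha and delta locus, which is rearranged in the thymus, had 8 of 136 V segments open in library 1 and 47 (34.6%) in library 2. Its share in library 2 has an interval, 27.1% to 42.9%, that overlaps that of Igh. The median share of unique 31-base stretches was 29.9% for its V segments and 70.3% for those of Igh. The part of this difference in the comparison was not tested. The T cell receptor beta locus had 3 and 7 of 35 open.

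**Figure D3:**
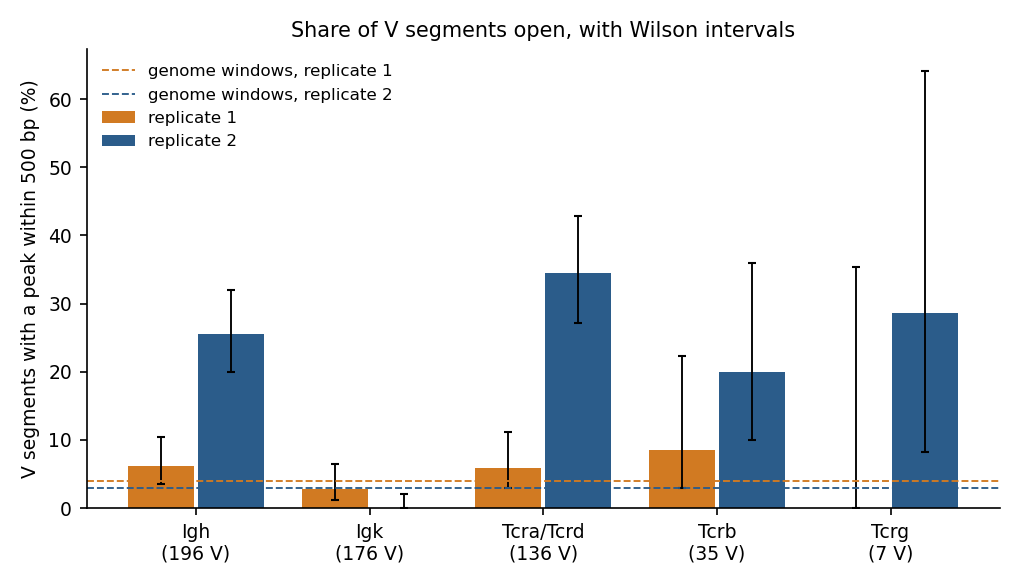
Share of V segments with a peak within 500 bp in Igh, Igk and the T cell receptor loci, for replicate 1 (orange) and replicate 2 (blue), with 95% Wilson intervals as error bars. Dashed lines give the share of genome windows with a peak, 4.02% and 2.99%. Igh reaches 25.5% in replicate 2, while Igk has no open V segment there.

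Igh V genes were open more often than V pseudogenes, which no longer encode a working segment. In library 2, 40 of 115 genes (34.8%) and 10 of 81 pseudogenes (12.3%) were open, and in library 1, 10 and 2. Segments followed by the exact heptamer CACAGTG were open in 37 of 108 cases in library 2, and the others in 13 of 88. The median share of unique 31-base stretches was 80.5% for pseudogenes and 67.7% for genes, and its part in the difference was not tested.

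The 12 V segments open in both libraries all belonged to the families nearest the D segments or in the adjoining stretch. They were Ighv5-2, Ighv5-9-1, Ighv5-17, Ighv2-3, Ighv2-6, Ighv2-6-8, Ighv2-9, Ighv4-1, Ighv11-1, Ighv11-2 and the pseudogenes Ighv4-2 and Ighv10-2. Ighv11-1 had the strongest V peak in both libraries, with a signal of 7.87 in library 1 and 9.85 in library 2. Ighv4-2 followed with 5.82 and 8.74, and Ighv11-2 with 1.36 and 2.36. The 9 others ranged from 0.235 to 0.737 in library 1 and from 0.470 to 2.22 in library 2. Among segments open in library 2 alone, the strongest were Ighv1-12 at 4.92 and Ighv14-2 at 3.14.

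Peaks of library 1 lay mostly among the nearer V segments, and those of library 2 along the whole locus. The V part was cut into stretches of 812 kb. Libraries 1 and 2 had 16 and 26 peaks in the stretch nearest D, 2 and 33 in the middle one, and 0 and 37 in the farthest. In the farthest stretch FDR intervals covered 628 bp in library 1 and 15557 bp in library 2. That stretch is also the least unique, at 46.4% of 31-base stretches against 68.4% in the nearest.

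The family Ighv1, the largest, fills much of the middle and farthest stretches. Of its 93 segments none was open in library 1 and 23 in library 2. In the other families together 12 of 103 were open in library 1 and 27 in library 2. The family Ighv3 had 0 of 8 open in either library, although 3 of its segments held the CTCF consensus within 150 bp after their end.

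The places of the peaks relative to the V segment differed between the families. Distances run from the 3' end of the segment to the peak centre, positive past the segment. The position windows below were drawn after the distances had been seen, so the counts in them are a description. In library 2, 22 of the 97 peaks in and 5' of the V part had their centre 41 to 73 bp past the end of a V segment, all in families other than Ighv1, Ighv9 and Ighv14. In library 1 this kind made up 12 of 18 peaks, and each of these 12 overlapped a peak of library 2. They are the peaks of the 12 segments open in both libraries.

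A match to the looser CTCF consensus lay in 15 of the 22 peaks of library 2 and 10 of the 12 of library 1, and 24.0% and 19.4% of all peaks held one. Ighv11-1 and Ighv11-2 were among the peaks without. Over the whole locus, 31 of 196 V segments had such a match 40 to 80 bp past the end, all on the strand of the segment and all starting between 52 and 63 bp. The match lay in a peak in 10 of the 31 in library 1 and 15 in library 2. All 15 in library 2 overlapped a footprint, and 6 of the 10 in library 1. None of the 93 Ighv1 segments had it. The stricter consensus, the one shown for the third kind, lay in 1 of the 22 peaks of library 2 and 0 of the 12 of library 1. Of all peaks, 8.21% and 6.68% held it. Of the V segments with the stricter consensus within 150 bp after their end, 1 of 7 was open in library 2, beside 49 of 189 others.

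The second kind was found in library 2 only in the shorter list. There 25 peaks had their centre from 149 bp before to 20 bp past the segment's end, 20 of them at Ighv1 segments and 4 at Ighv9 or Ighv14 segments. Their signals ranged from 0.439 to 3.14 with a median of 0.955, and none overlapped a peak of the shorter list of library 1. In its longer list a weak peak (0.188) overlapped the one at Ighv1-54. A RUNX match lay in 19 of the 25 peaks, and a match to either CTCF consensus in none. Of all peaks of library 2, 16.7% held a RUNX match, but these families carry it with or without a peak. It stood in the spacer of 64 of 93 Ighv1, 4 of 4 Ighv9 and 3 of 4 Ighv14 segments. The share of all peaks is therefore not a like comparison.

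Of the Ighv1 segments, 64 of 93 had the RUNX match in the spacer of the recombination signal. In library 2 a peak covered the start of the signal sequence in 18 of these 64 (28.1%) and in 1 of the 29 others (3.45%), and in library 1 in none. Among Ighv1 genes the counts were 14 of 40 with and 1 of 14 without the match, and among Ighv1 pseudogenes 4 of 24 and 0 of 15. Over all families, 71 of 196 segments had the match, and in library 2 it lay in a peak in 19 of them and in a peak and a footprint in 6. The segments are copies of each other, so these are not independent cases.

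The third kind was also found in library 2 only in the shorter list. In the longer list of library 1, a weak peak (0.165) overlapped the one upstream of Ighv1-65. There 13 peaks had their centre 1191 to 1382 bp before the segment's end, 12 of them at Ighv1 segments and 1 at the pseudogene Gm38184. All 13 held the CTCF consensus, which 8.21% of all peaks of library 2 held. Their signals ranged from 0.740 upstream of Ighv1-55 to 5.03 upstream of Ighv1-86, the outermost V segment. Of all 196 segments, 13 had the consensus 1000 to 1400 bp before their end, and in library 2 it lay in a peak in 12, each time with a footprint over it. These peaks were in sequence of low uniqueness, with a median of 37.8% and a range from 5.88% at Ighv1-55 to 98.2% at Ighv1-67. Its part in the result was not tested.

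**Figure D4:**
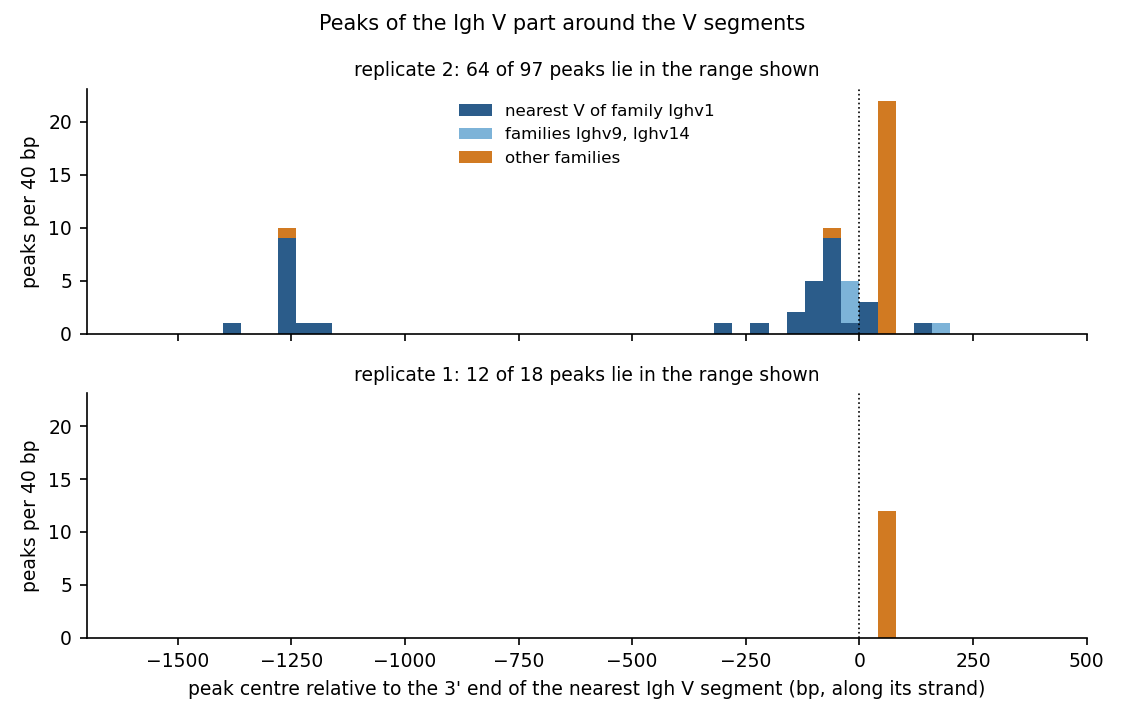
Number of peaks of the shorter list per 40 bp by the distance of the peak centre from the 3' end of the nearest Igh V segment. Replicate 2 is at the top and replicate 1 at the bottom, with colours for V families. In replicate 2 there are 3 groups, just past the end (22 peaks), over the end (25) and upstream (13), and replicate 1 has the first alone (12 peaks).

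The remaining 37 peaks of library 2 in and 5' of the V part lay elsewhere, 10 of them with the CTCF consensus. The strongest, chr12:114587381-114587540, lay 3892 bp from the 3' end of Ighv1-9 on its upstream side and held the consensus. Its signal was 9.01 in library 2 and 0.635 in library 1, the highest ratio among the shared Igh peaks. Another, chr12:114615281-114615460, with a signal of 4.92, lay 479 bp past Ighv1-12, held the consensus and was found in library 2 only.

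CTCF matches faced one way in the V part and the other way at the 3' border. Over both loci, 26 of 121 peaks of library 2 (21.5%, Wilson interval 15.1% to 29.6%) and 4 of 49 of library 1 (8.16%, 3.22% to 19.2%) held the consensus, against 8.21% and 6.68% of all peaks. In library 2 the 24 matches in and 5' of the Igh V part were all on the minus strand, the strand of the V segments, and the 2 matches 3' of Igha on the plus strand. All 26 overlapped a footprint, as did 95.0% of the matches in all peaks of library 2, and in library 1 all 4 did, beside 89.6%. The library 1 matches in Igh had the same directions, 1 minus in the V part and 2 plus 3' of Igha.

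The D and J segments, and the constant genes, had no peak within 500 bp in either library. This holds for all 22 D segments, Ighj1 to Ighj4, the constant genes Ighm, Ighd, Ighg3, Ighg1, Ighg2b, Ighg2c, Ighe and Igha and the pseudogene Gm37944. Ighm (ENSMUSG00000076617.9, chr12:113418558-113422730) encodes the constant part of IgM. The longer deposited peak list added none of these in library 1 and, in library 2, weak peaks at Ighd4-1 (0.663), Ighd3-2 (0.516), Ighj2, Ighj3 and Ighj4 (1 peak, 0.624), Ighm (0.509), Ighd (0.570) and Igha (0.401).

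The intron between the Igh J segments and Ighm, which carries the intronic enhancer, was open in library 2 alone. Library 2 had 6 peaks in these 5.78 kb, with FDR intervals over 3145 bp and 25 footprints. Library 1 had no peak of either list, no FDR interval and no footprint there. As a whole the intron is 85.8% unique, but part of this opening lay in repetitive sequence nearer Ighm. The peaks chr12:113424421-113424680 and chr12:113424681-113425900 had 34.2% and 56.0% unique stretches. A listed peak inside the latter had 61.5%. The peak chr12:113424681-113425900 alone overlapped 16 of the 25 footprints.

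The peak printed above, chr12:113427401-113427640, lay 0.994 kb from Ighj4 and had a signal of 1.44. It held the octamer, which 0.805% of all peaks of library 2 held, together with 2 CAGGTG, 1 CAGCTG, 1 RUNX and 1 Yy1 match. The peak overlapped 3 footprints, but none of these matches overlapped one. A second peak at chr12:113426601-113426948, with a signal of 1.43, held 1 CAGGTG and 1 CAGCTG match, and a footprint lay over that CAGGTG. Both are unique sequence. The strongest peak, chr12:113424681-113425900 at 2.24, lay nearer Ighm and enclosed another listed peak at 2.04. Its sequence is repetitive, as switch regions before constant genes are, with 56.0% unique stretches. The remaining peaks had signals of 1.11 and 1.18.

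The kappa locus had no such opening. In the 2.51 kb between Igkj5 and Igkc neither library had a peak of either list, an FDR interval or a footprint, although every 31-base stretch there is unique. Igkj1 to Igkj5 and Igkc (ENSMUSG00000076609.2, chr6:70726435-70726966), which encodes the constant part of the kappa chain, were also without any. The NF-kB match shown above starts at chr6:70725755, and a CTCF consensus match at chr6:70725731 was likewise outside any peak.

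**Figure D5:**
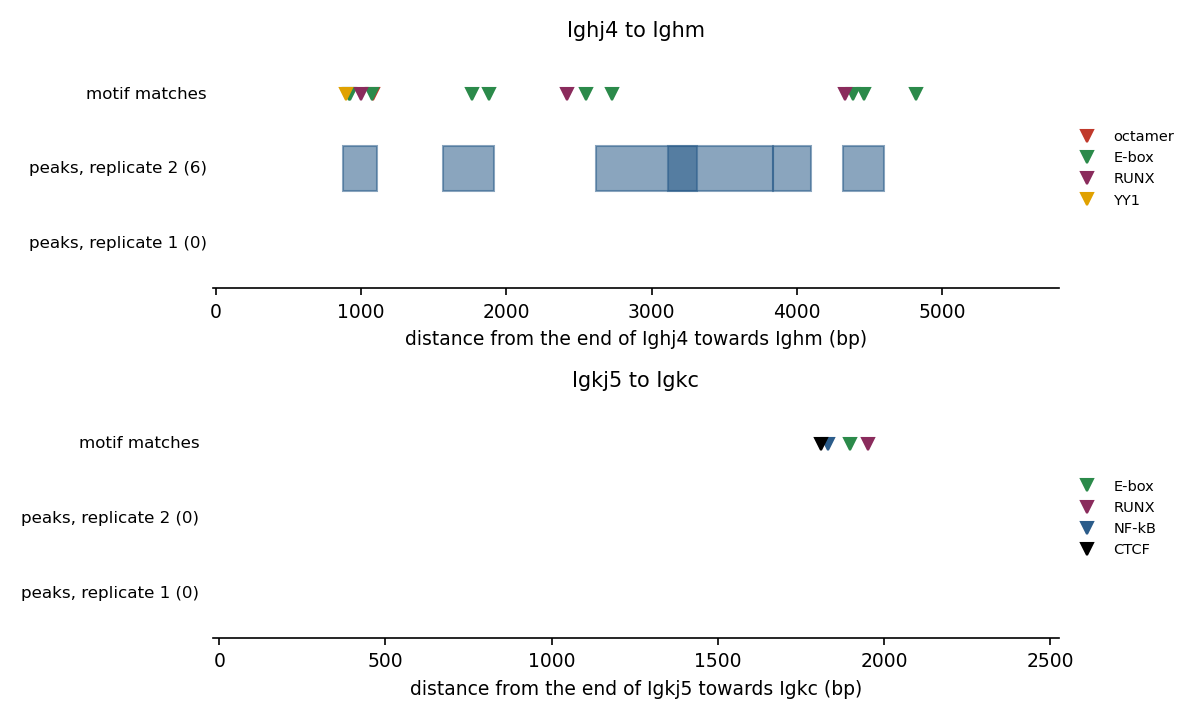
Map of the intron between Ighj4 and Ighm (top) and between Igkj5 and Igkc (bottom), in bp from the end of the J segment. Boxes are peaks of the shorter list (replicate 2 above replicate 1) and triangles are motif matches on either strand. The Igh intron has 6 peaks in replicate 2 and none in replicate 1, and the Igk intron none in either.

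The border 3' of the Igh constant genes was open in both libraries. From chr12:113219961 to 113224500 library 1 had 6 peaks and library 2 had 7, and each peak of library 1 overlapped one of library 2. The strongest, chr12:113222121-113222320, had a signal of 5.59 in library 1 and 16.4 in library 2, the highest in the whole of Igh in library 2. It lay 32.6 kb from Igha and held none of the motifs searched. The other shared peaks ranged from 0.564 to 1.28 in library 1 and from 2.11 to 3.93 in library 2. The interval cuts this cluster, since 3 more peaks of each library lay just outside it, at 1.14 to 1.87 and 2.27 to 5.64.

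The stretch between this cluster and Igha was without peaks. In 30.2 kb (chr12:113224601-113254829) neither library had a peak of either list, an FDR interval or a footprint. The 3' enhancers of the heavy chain locus are known to lie 3' of Igha. Their positions were not in the annotation used, so this stretch is defined by its ends alone. Which of the enhancers lie in it and which in the cluster was not settled.

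A single shared peak lay among the D segments. It lay at chr12:113487781-113488000, 5.70 kb from Ighd1-1 on the V side, next to the gene Adam6b, with a signal of 1.97 in library 1 and 5.38 in library 2. Between Ighd1-1 and the V segments, an intergenic control region with CTCF sites is known to keep V segments from joining early. Its position was not in the annotation used, so whether this peak belongs to it was not settled. The peak held neither CTCF consensus. The only consensus match among the D segments, chr12:113485269-113485281 on the minus strand, lay 3.08 kb from Ighd1-1. It was in no peak of the shorter list but in 1 of the longer list in each library (0.188 and 0.701), with a footprint over it in both. Library 2 had 1 further peak among the D segments, chr12:113446176-113446300, with a signal of 0.955. The 44.9 kb between the last D and the first V segment had no peak and no FDR interval in either library.

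In Igk the peaks found in both libraries lay mostly outside the V part. Between Igkv3-1 and Igkj1, where the kappa locus carries its own CTCF-bound elements, 2 peaks were shared. The peak at chr6:70714301-70714500, 8.16 kb from Igkj1, had a signal of 1.91 in library 1 and 4.05 in library 2, the highest of Igk in each. The peak at chr6:70709381-70709560, 13.1 kb from Igkj1, had 1.49 and 1.71. Neither held a CTCF consensus match of either form. Library 1 had 1 further peak at chr6:70709761-70709980, with a signal of 0.729.

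Only 1 peak lay 3' of Igkc in each library, at chr6:70752581-70752740 in library 2, 25.7 kb away, with 1.18 in library 1 and 1.28 in library 2. In the 25.5 kb between it and Igkc, where enhancers are known, library 2 had no peak and no FDR interval. Library 1 had no peak of the shorter list and 1 of the longer, at 0.470. At the far edge, 5' of the V segments, 2 peaks were shared, with 0.988 and 0.478 in library 1 and 1.62 and 0.925 in library 2. Within the V part the libraries shared 1 weak peak, 0.392 and 0.401, near Igkv2-95-1.

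The open kappa V segments of library 1, 2.84% of all beside 4.02% of genome windows, lay together in the 1050 kb nearest the J segments. They were Igkv8-30 (1.57), Igkv8-24 (1.51), Igkv8-18 (1.19), Igkv6-25 (1.09) and Igkv8-26 (0.800). All but Igkv6-25 belong to the family Igkv8, of which 4 of 12 segments were open. The peaks covered the segment's 3' end in these 4. That stretch held 12 peaks and 7304 bp of FDR intervals in library 1, and no peak and 173 bp in library 2. Its density in library 1, 1.14 peaks per 100 kb, was below the genome's 3.13. The strongest peaks of the open V segments were in sequence of mixed uniqueness, from 35.8% at Igkv6-25 to 67.0% at Igkv8-18.

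Adam6a and Adam6b, sperm surface genes of another family that lie between Ighd1-1 and the V segments, had no promoter peak in either library.

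Of 31 genes whose proteins act on these loci, 23 (74.2%) had an open promoter in library 1 and 29 (93.5%) in library 2, against 63.1% and 60.1% of all protein-coding genes. All 23 were open in both. Open in library 2 alone were 6 of them, where 3.37% of all protein-coding genes were. They included Irf4 (4.95), Rag1 (4.75), Rag2 (3.81), Fli1 (3.01) and Spi1 (2.87). Rag1 and Rag2 encode the recombinase itself, and the others are transcription factors of blood cells. Ctcf had 5.55 and 11.8, Runx1 3.26 and 4.06, and Pax5, the B lineage factor, 1.80 and 4.52. Neither library had a promoter peak at Spib or at Dntt, which encodes the polymerase that adds bases at the joints. No gene of the list was open in library 1 alone, where 6.41% of all protein-coding genes were.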

How the data were processed

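DNase-seq of 2 libraries labelled as thymus was analysed from the deposited lists, on mm10 per the labels and the deposited notes. The lists of a library were made from its filtered alignment, per the deposited notes. The deposited peak lists give a signal per peak. It was a whole multiple of 0.00784 (library 1) and 0.00771 (library 2) in 100% of peaks, within 0.05 steps, which does not give the depth. The deposited FDR tables give a p-value-like FDR per interval, below 0.05. The deposited footprint lists give a score, 0.01 in every row, so footprints were not ranked. The sources used here do not name the aligner, callers, thresholds, signal scaling or depth.

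The shorter of the 2 peak lists per library was the main one. Segments came from GENCODE vM21 and sequences from GRCm38.p6 (RefSeq). Overlaps needed 1 bp. Motifs were searched on both strands, and 31-base stretches were counted over 21 chromosomes. Wilson intervals have 95% confidence. The code was checked on simulated data. Python 3.11.15, pandas 2.3.3, scipy 1.17.1 and samtools 1.23.1 were used. No test was run. Named were all C and J segments, V segments open in both libraries, the strongest V segments and peaks, and every peak between V, D, J and C or 3' of C. The members and lists were chosen with earlier results of these data known. Alternatives were the longer list, the stronger 50% of peaks, other windows, overlaps and consensus sequences, and leaving out a library. Results on 2 genes are not reported here.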

Additional observations from a re-analysis of the deposited data

How the results depend on the processing

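The counts of Igh depended on the peak list and on weak peaks. With the longer list, V segments open in Igh in library 1 rose from 12 to 20, Igh peaks of library 1 from 25 to 44, Igk peaks from 24 to 47 (library 1) and from 9 to 18 (library 2), and Igk V segments open in library 2 from 0 to 1. With the stronger 50% of each library's peaks, open Igh V segments fell to 3 (library 1), 11 (library 2) and 3 (both), Igh peaks to 7 and 32, open Igk V segments of library 1 to 2 and Igk peaks to 4 and 3, and the share of Igk peaks of library 1 found in library 2 was 50%. The looser CTCF consensus was in 30.6% and 33.1% of the immunoglobulin peaks, beside 19.4% and 24.0% of all peaks. Leaving out a library gave 12 to 50 open Igh V segments and 0 to 5 open Igk V segments. The cause of these changes was not tested. The other alternatives stayed within 1.5 times the main count or within the main share's interval, and library 2 exceeded library 1 in Igh in each list. For the genes acting on the loci, 2 alternatives chosen after seeing the data gave 20 to 26 (library 1) and 29 to 30 (library 2). No paired analysis was possible because there is 1 group. Depth is unknown, so a missing peak does not show closed chromatin.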
